A study of Arabidopsis thaliana with 23 samples.

Results

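PEO-IAA is a synthetic derivative of the natural auxin indole-3-acetic acid (IAA) that blocks auxin perception. Its effect on gene expression was read from 6 of the 23 ATH1 microarrays of the series: the 3 arrays titled PEO-IAA, replicates 1 to 3, against the 3 arrays titled mock, replicates 1 to 3, with equal replicate numbers taken as a pair. All arrays held RNA of whole Col-0 Arabidopsis thaliana seedlings without a transgene or mutation in the labels. The seedlings grew for 6 or 7 days on agar with 1% sucrose and for 1 day in shaken liquid medium, and were then treated for 3 h. One group received 10 µM PEO-IAA without added IAA, and the mock group received neither. The groups set beside them, with 3 arrays each, received 10 µM PEO-IAA plus 1 µM IAA, 1 µM IAA alone, or 30 µM kynurenine. The labels do not say whether replicates were grown as separate cultures. P-values here therefore reflect the spread among these arrays, part or all of which may be technical, and the number of arrays limits the precision.

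Auxin acts in the nucleus through the F-box receptor TIR1 and its AFB relatives. Auxin bound to the receptor acts as a glue for Aux/IAA repressors, which are then degraded, so that auxin response factors can switch on early auxin genes such as the GH3 conjugating enzymes, the Aux/IAA genes themselves and LBD transcription factors. PEO-IAA occupies the auxin pocket of the receptor and hinders the contact with Aux/IAA proteins. In roots, auxin is known to promote the outgrowth of root hairs, the tubular extensions of epidermal cells. Kynurenine lowers auxin by another route, since it inhibits the aminotransferases that start IAA synthesis from tryptophan.

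Seedlings treated with PEO-IAA had lower signals for several genes of growing root hairs and for the GH3 genes GH3.3 and WES1 (GH3.5). The other tested GH3 genes did not pass the threshold given below. Signals were higher for a few glutathione transferases and glycosyltransferases (GSTU22, GSTU25, UGT73B4 and UGT73B5), enzymes that attach glutathione or sugars to small molecules. The values were MAS5 probe set signals, a linear intensity. They were compared as log2(signal + 7.54), a scale that understates the change of dim probe sets. Of 15922 probe sets tested, 151 passed an adjusted p of 0.05 in limma with Benjamini-Hochberg adjustment, which is 0.948% of those tested. Of these, 90 were higher with PEO-IAA (0.565%) and 61 were lower (0.383%), and 1082 probe sets had an unadjusted p under 0.05. All 151 moved the same way in all 3 pairs, but the test that picked them used these same pairs and favours such agreement. The share of all tested probe sets that did so was not counted. In 148 of the 151 the 3 PEO-IAA arrays did not overlap with the 3 mock arrays, whereas 12.2% of all tested probe sets showed no overlap.

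**Figure D1:**
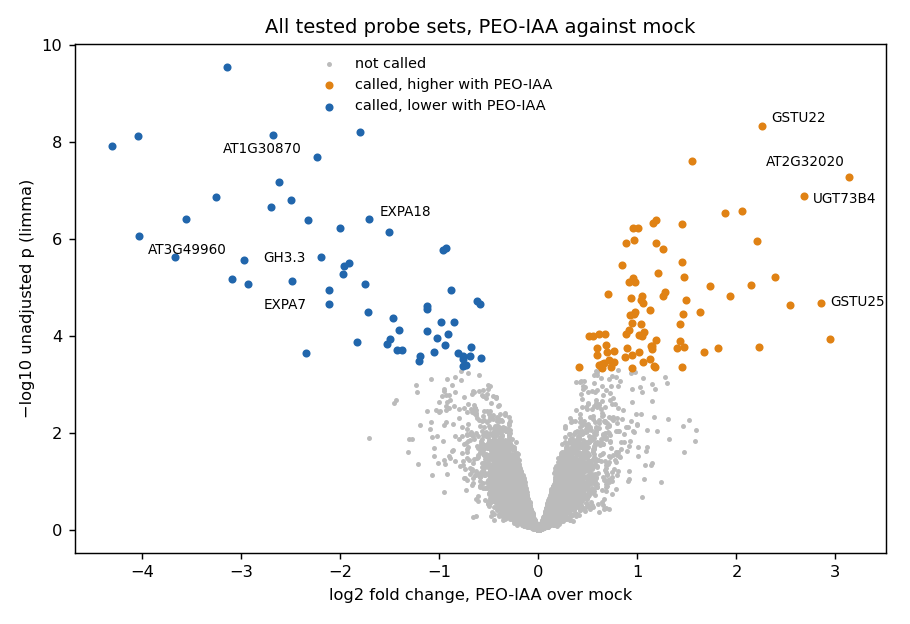
Log2 fold change of PEO-IAA over mock (x axis) against −log10 of the unadjusted limma p (y axis) for the 15922 tested probe sets, one point each. Orange points are the 90 called higher with PEO-IAA, blue points the 61 called lower, and grey points were not called. The blue points reach a log2 fold change of -4.31 and the orange ones 3.13.

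The decreases were larger than the increases. The median log2 fold change was 1.05 among the higher calls and -1.53 among the lower calls, against -0.0025 over all tested probe sets. More than 4-fold differences were seen for 11 higher and 22 lower calls, and more than 8-fold differences for 1 and 8. The lower calls had a median signal of 85.1 with PEO-IAA and 308 in mock, and the higher calls had 727 with PEO-IAA and 295 in mock. The median signal of all tested probe sets was 379.9. Of the 151 calls, 61 name 1 gene (37 higher and 24 lower), 3 name several genes, and 87 carry no gene name in the annotation used here.

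The count depended on an array outside the comparison. That array is the third of the 1 µM IAA group, with a median correlation to the rest of 0.879 and a ratio of 3′ to 5′ GAPDH control signal, a sign of RNA quality, of 24.4. The 6 arrays compared here had correlations of 0.952 to 0.969 and ratios of 1.61 to 2.03. That array enters the shared estimate of the spread, though not the contrast itself. Without it 320 probe sets were called (2.01%), 185 higher (1.16% of those tested) and 135 lower (0.848%), and all 151 were among them. Without the replicate pairing 105 were called, 57 higher and 48 lower. Leaving out 1 of the 6 arrays gave 80 calls (without mock replicate 3) to 103 (without mock replicate 1), and the lowest counts also came without PEO-IAA replicate 2 (82) and mock replicate 2 (88).

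Root hair genes had the most lower calls of the lists examined, which were written with earlier results of these data known. The ranking and the counts below are therefore no independent test of the list. Of 48 listed genes, 10 were named on the array and 9 were tested. 6 of the 9 fell and none rose, where 0.383% of all tested probe sets fell, and the median log2 fold change of the 9 was -1.71. All 6 stayed called without the third IAA array, and 5 or 6 were called when 1 of the 6 arrays was left out. By the lists used, the 6 encode wall proteins: 3 peroxidases, 2 expansins and an endoglucanase. In whole seedlings, fewer hair cells and less RNA per hair cell cannot be told apart.

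EXPA7 and EXPA18 encode alpha-expansins, proteins that loosen cell walls, and are known for expression in root hair cells. EXPA7 had signals of 47.0, 30.6 and 5.89 on PEO-IAA arrays 1 to 3, against 138, 145 and 94.8 on mock arrays 1 to 3. The highest PEO-IAA array lay below the lowest mock array, and the log2 fold change was -2.11 ± 0.36 (SE, adjusted p = 0.00511). The third PEO-IAA array lay below the added constant of 7.54, and with the 30th percentile of all values as the constant the change was -1.10, still called. EXPA18 had 93.5, 86.0 and 56.3 with PEO-IAA and 296.6, 292 and 224 in mock. Again the groups did not overlap, and all PEO-IAA arrays held less than the lowest mock value (log2 fold change -1.71 ± 0.21, adjusted p = 0.000326). GH9C1, an endoglucanase of glycosyl hydrolase family 9, which cuts wall glucans, had 72.0, 67.9 and 26.0 with PEO-IAA and 235.7, 246 and 167 in mock. Its log2 fold change was -1.91 ± 0.27 (adjusted p = 0.00131).

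The 3 remaining called members, AT3G49960, AT1G30870 and AT4G26010, belong to the class III peroxidases, secreted enzymes that use hydrogen peroxide and act on wall polymers. AT3G49960 had the largest decrease among probe sets that name 1 gene, with 3.29, 11.3 and 1.64 with PEO-IAA and 210.0, 255 and 136 in mock. With PEO-IAA the signal was close to or below the added constant of 7.54, so the size of the change is uncertain: the log2 fold change was -4.03 ± 0.52 (adjusted p = 0.000508), -5.104 with the 2nd percentile of all values as the constant and -1.97 with the 30th. AT1G30870 had 174, 78.8 and 58.0 with PEO-IAA and 635, 505 and 319 in mock, a log2 fold change of -2.24 ± 0.22 (adjusted p = 4.59e-05). AT4G26010 had 510.2, 463 and 149.8 with PEO-IAA and 1011, 965 and 455 in mock. Here the groups overlapped, since the third array was low in both groups, and the call was made with the pairing alone (log2 fold change -1.19 ± 0.25, adjusted p = 0.0319 paired and 0.442 without pairing). It was kept without PEO-IAA replicate 2 and lost when any other of the 6 arrays was left out, with adjusted p up to 0.2196 without PEO-IAA replicate 3.

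**Figure D2:**
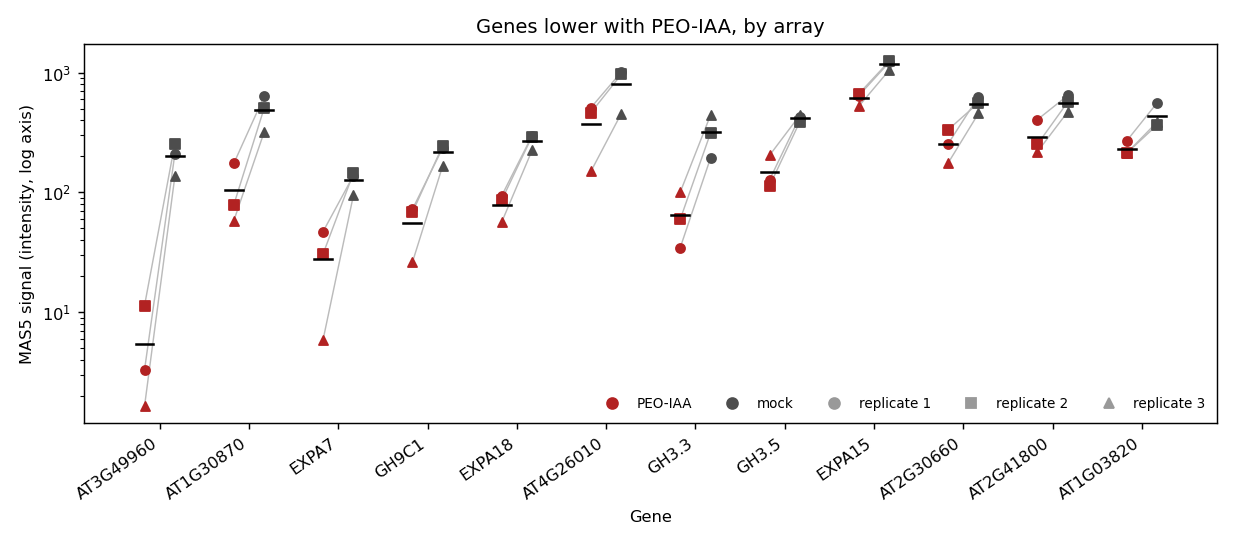
MAS5 signal (log axis) of 12 genes called lower with PEO-IAA, with PEO-IAA arrays in red on the left and mock arrays in dark grey on the right of each gene. Symbols mark replicates 1 to 3, grey lines join arrays of equal number, and black bars are means. Every line runs upward to the mock array, and replicate 3 is the lowest array of both groups for all 6 root hair genes at the left.

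The 3 tested root hair members that were not called had log2 fold changes near 0. FER, the receptor kinase FERONIA, which is expressed far beyond root hairs, averaged 1845 ± 20.4 with PEO-IAA and 1799 ± 293 in mock (SD, n = 3 each). AT1G29020 averaged 1491 ± 358 with PEO-IAA and 1764 ± 118 in mock.

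Among general class III peroxidases no common direction was seen. Of 38 tested members (55 named on the array), 3 fell, which are the hair peroxidases above, and 1 rose, with a median log2 fold change of -0.0598. Of all tested probe sets 0.383% fell and 0.565% rose. The one that rose, AT2G18980, had 1798, 1892 and 1632 with PEO-IAA and 944, 1452 and 994 in mock (log2 fold change 0.67 ± 0.13, adjusted p = 0.0156). The groups did not overlap, but the call was kept only without mock replicate 2 when 1 array was left out (adjusted p up to 0.129 otherwise) and was lost without the pairing (0.0732). Without the third IAA array, 5 members rose and 3 fell, where 1.16% and 0.848% of all tested probe sets did.

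Genes of auxin conjugation and oxidation also had lower calls. Of 7 tested members of 10 listed, GH3.3 and WES1 (also known as GH3.5) fell and none rose, where 0.383% of all tested probe sets fell, with a median log2 fold change of -0.24. GH3 enzymes join IAA to amino acids and are classic early auxin-induced genes. GH3.3 had 34.5, 59.5 and 100.3 with PEO-IAA and 194, 313 and 443 in mock. Replicate 3 was the highest in both groups, and each PEO-IAA array held less than the lowest mock array (log2 fold change -2.19 ± 0.30, adjusted p = 0.00106).

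WES1 had 127, 113 and 203.5 with PEO-IAA and 429, 389.7 and 442 in mock, again without overlap (log2 fold change -1.50 ± 0.30, adjusted p = 0.0188). Its call was kept without PEO-IAA replicate 3 and lost when any other of the 6 arrays was left out, with adjusted p up to 0.165. GH3.1 was dim and was not called, at 9.93 ± 10.9 with PEO-IAA and 25.6 ± 2.58 in mock (SD, n = 3 each; log2 fold change -1.09 ± 0.34, adjusted p = 0.281). GH3.9 and GH3.17 had log2 fold changes of -0.24 ± 0.23 and -0.15 ± 0.26, and AT1G14130 and AT1G14120, the members listed as oxidation genes, had 0.57 ± 0.18 and 0.68 ± 0.34, none of them called. GH3.17 averaged 351 ± 86.5 with PEO-IAA and 388 ± 78.7 in mock.

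Other early auxin genes did not pass the test, and most of their values lay below 0, as did 8062 of all 15922 tested probe sets. None of 6 tested auxin-induced transcription factor and growth genes was called, with a median log2 fold change of -0.59. LBD29 and LBD16, transcription factors of lateral root formation, had -1.30 ± 0.47 (adjusted p = 0.436) and -0.80 ± 0.25 (0.261), and HAT2, a homeodomain-leucine zipper factor, had -0.60 ± 0.16 (0.109). From the same list, AT5G62280 had -0.57 ± 0.27, EXO 0.07 ± 0.27 and ARL 0.19 ± 0.14. None of the 3 tested Aux/IAA repressor genes was called: IAA29 had -0.55 ± 0.25, IAA30 -0.35 ± 0.22 and IAA18 -0.13 ± 0.20. WAG2, a protein kinase that acts on PIN auxin efflux carriers, was the single tested transport gene and had -0.98 ± 0.26 (adjusted p = 0.127). Without the third IAA array, WAG2 and 1 of the 6 transcription factor and growth genes were called lower, where 0.848% of all tested probe sets were. The 3 tested genes of auxin and tryptophan synthesis, among them the flavin monooxygenase gene YUC2 (0.16 ± 0.15), were not called. Only a part of these families could be examined, for instance 7 of 29 Aux/IAA genes named on the array and 3 of them tested, and none of the 21 listed receptor and response factor genes was named on the array.

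Wall genes outside the hair list had values below 0 in 8 of 10 cases, as had 8062 of all 15922 tested probe sets, with 1 call. Of 10 tested expansins and xyloglucan-modifying XTH enzymes linked to growth, EXPA15 fell and none rose (0.383% of all tested probe sets fell), with a median log2 fold change of -0.45. EXPA15, another alpha-expansin, had 642.5, 664 and 524 with PEO-IAA and 1217, 1245 and 1047 in mock (log2 fold change -0.93 ± 0.13, adjusted p = 0.000763). The 3 PEO-IAA arrays lay below all 3 mock arrays, and each group was narrow. EXPA4 missed the threshold, at 937 ± 95.2 with PEO-IAA and 1572 ± 449 in mock (log2 fold change -0.71 ± 0.17, adjusted p = 0.0594). A second member passed the threshold without the third IAA array, where 0.848% of all tested probe sets were called lower. GH9C2, an endoglucanase related to GH9C1, had 951, 869.7 and 824 with PEO-IAA and 1407, 1393 and 1187 in mock (log2 fold change -0.59 ± 0.10, adjusted p = 0.00513). That call was lost without the pairing (0.0673) and without PEO-IAA replicate 2 (0.0532). The log2 fold change of 1 µM IAA over mock was -0.50 ± 0.13 for EXPA15 (adjusted p = 0.0269) and 0.05 ± 0.10 for GH9C2 (not called).

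The mock arrays numbered 4 and 5, which belong to other treatments of the series, had lower levels of some of these genes. EXPA15 had 696 and 798 on those arrays and GH9C2 had 797 and 856, so that GH9C2 lay there within or below the PEO-IAA range of replicates 1 to 3. By contrast, AT1G30870 had 748 and 958, and EXPA7 had 176 and 196, above all mock arrays 1 to 3. When all 5 mock arrays served as the control without pairing, 162 probe sets were called, and EXPA15, GH9C2, AT2G30660, AT1G03820, AT5G12050, GRX480 and AT4G26010 were lost among the 31 genes that the naming rule and the lists gave.

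The other genes that fell under the naming rule have only locus names in the gene table used. AT2G30660 had 254, 333 and 175.5 with PEO-IAA and 630.1, 559 and 456 in mock (log2 fold change -1.12 ± 0.19, adjusted p = 0.00628). AT2G41800 had 405, 251.5 and 218 with PEO-IAA and 644, 567.5 and 471 in mock (log2 fold change -0.97 ± 0.13, adjusted p = 0.000802). AT1G03820 fell by 0.88 ± 0.14 and AT5G12050 by 0.85 ± 0.16 on the log2 scale (adjusted p = 0.00329 and 0.0103). All 4 showed no overlap between the groups. The AT2G30660 call was lost without PEO-IAA replicate 3 (0.0639) or mock replicate 1 (0.0614), the AT5G12050 call without PEO-IAA replicate 1 (0.0927) or mock replicate 1 (0.0889), and AT2G41800 and AT5G12050 without the pairing (0.116 and 0.2505). With 1 µM IAA over mock, AT2G30660 and AT2G41800 were also called lower (-1.14 ± 0.19 and -1.345 ± 0.13). AT1G03820 and AT5G12050 were called higher there (1.11 ± 0.14 and 0.88 ± 0.16).

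Among the genes that rose were 4 enzymes of families known for detoxification. Of 9 tested tau-class glutathione transferases (11 named, of 28 listed), GSTU22 and GSTU25 rose and none fell, where 0.565% of all tested probe sets rose. These enzymes couple glutathione to reactive or foreign compounds. The median of the 9 was 0.11, and 7 of the 9 were not called. GSTU22 had 1062, 1853 and 1811 with PEO-IAA and 334, 305 and 300.4 in mock. The mock arrays lay close together and far below every PEO-IAA array (log2 fold change 2.26 ± 0.20, adjusted p = 2.47e-05).

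GSTU25 had 1338, 1609 and 3571 with PEO-IAA and 623, 174.7 and 173 in mock. Mock replicate 1 was far above the other mock arrays, yet below every PEO-IAA array (log2 fold change 2.85 ± 0.48, adjusted p = 0.00496). The value was 3.503 without that array, and the call was lost without PEO-IAA replicate 3 (0.0523) or mock replicate 3 (0.0532). The 6 tested members with small positive or negative values between GSTU20 (-0.12 ± 0.15) and GSTU16 (0.14 ± 0.14) were not called. GSTU20 averaged 5027 ± 479 with PEO-IAA and 5448 ± 187 in mock. GSTU28 stood on the other side, at 99.5 ± 36.4 with PEO-IAA and 219.6 ± 42.4 in mock (SD, n = 3 each; log2 fold change -1.13 ± 0.33, adjusted p = 0.205). It was called lower without the third IAA array, where 0.848% of all tested probe sets were.

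UDP-glycosyltransferases attach sugars to small molecules. Of 34 tested members, UGT73B4 and UGT73B5 rose and none fell, where 0.565% of all tested probe sets rose, with a median log2 fold change of 0.056. Both lie next to each other on chromosome 2 (AT2G15490 and AT2G15480), and no other called genes with 1 name were direct neighbours. UGT73B4 had 771, 653 and 1009 with PEO-IAA and 202, 78.4 and 103 in mock (log2 fold change 2.68 ± 0.30, adjusted p = 0.00018). UGT73B5 had 326, 328 and 458 with PEO-IAA and 160.4, 119 and 107 in mock (log2 fold change 1.47 ± 0.22, adjusted p = 0.0022). The groups did not overlap for either gene, and both calls held in every alternative that tested them, 19 for UGT73B4 and 18 for UGT73B5. They are close paralogs, and their probe sets may share some signal.

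**Figure D3:**
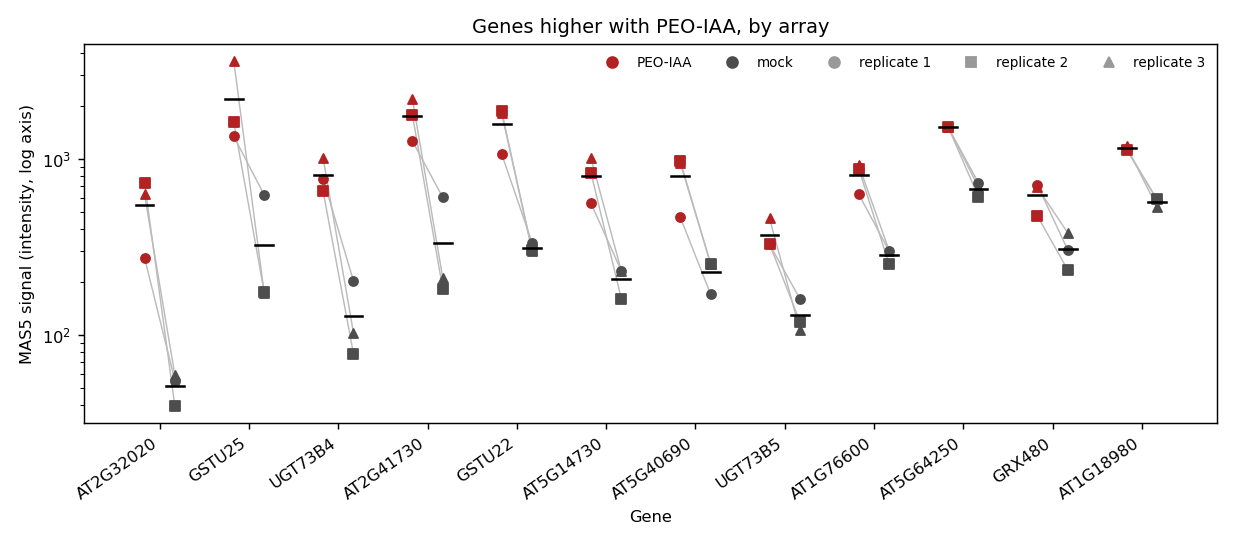
MAS5 signal (log axis) of 12 genes called higher with PEO-IAA, with PEO-IAA arrays in red on the left and mock arrays in dark grey on the right of each gene. Symbols mark replicates 1 to 3, grey lines join arrays of equal number, and black bars are means. Mock replicate 1 is the highest mock array for GSTU25, UGT73B4 and AT2G41730, and the groups do not overlap for any of the 12.

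Other genes linked to xenobiotics or oxidative stress were not called. The 6 tested members of 30 listed had a median log2 fold change of 0.52, and 5 of the 6 were above 0. AT2G04050 and AT2G21640 had the largest values, 1.00 ± 0.42 (adjusted p = 0.599) and 0.81 ± 0.40 (0.789). AT2G04050 averaged 296 ± 177 with PEO-IAA and 128 ± 3.48 in mock, so the PEO-IAA arrays differed much more among themselves than the mock arrays. NDB2, an alternative NADH dehydrogenase of mitochondria, had 0.64 ± 0.19 (0.217). Without the third IAA array 1 of the 6 was called higher, where 1.16% of all tested probe sets were. The 13 tested cytochromes P450 and the single tested phi-class glutathione transferase were not called.

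Of 3 tested defence genes (14 listed), only GRX480 was called, as higher. Of all tested probe sets 0.565% rose and 0.383% fell, and a single call says little about the list. GRX480 encodes a glutaredoxin that binds TGA transcription factors and is known as a salicylate-induced gene. It had 711, 473 and 686 with PEO-IAA and 304, 234 and 379 in mock (log2 fold change 1.01 ± 0.21, adjusted p = 0.0284). The call was kept without PEO-IAA replicate 3 and lost when any other of the 6 arrays was left out (adjusted p up to 0.2295) and without the pairing (0.349). WRKY53 and the defensin PDF1.2 had -0.35 ± 0.23 and 0.31 ± 0.38. None of the 5 tested WRKY factors and 4 tested bHLH factors was called.

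The largest increase of a gene with 1 name was that of AT2G32020. It had 274, 729.7 and 627.5 with PEO-IAA and 55.1, 39.4 and 59.0 in mock, a log2 fold change of 3.13 ± 0.32 (adjusted p = 9.34e-05). AT2G41730 had 1261, 1774 and 2182 with PEO-IAA and 603, 183 and 211 in mock (log2 fold change 2.54 ± 0.43, adjusted p = 0.00539). Its probe set is of a kind that can match other transcripts, and the call was lost without PEO-IAA replicate 2 (0.0628) or mock replicate 3 (0.0577). AT5G14730 had 559, 832 and 1008 with PEO-IAA and 231, 160.5 and 231 in mock (log2 fold change 1.89 ± 0.22, adjusted p = 0.0003). AT5G40690 had 466, 969 and 946 with PEO-IAA and 170.3, 254 and 254 in mock (log2 fold change 1.73 ± 0.27, adjusted p = 0.00284). In AT2G32020, AT5G40690 and GSTU22 the first PEO-IAA array was the lowest of the 3.

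AT5G64250 and AT1G18980 were steady from array to array. AT5G64250 had 1511, 1517 and 1516 with PEO-IAA and 729, 608 and 689 in mock (log2 fold change 1.16 ± 0.14, adjusted p = 0.00036). AT1G18980 had 1132, 1126 and 1172 with PEO-IAA and 585, 587 and 532 in mock (log2 fold change 1.00 ± 0.12, adjusted p = 0.00039). Both groups were narrow, and the difference was many times their spread. AT4G30460 rose by 0.91 ± 0.14 and held in all fits with 1 array left out. AT1G76600 (1.47 ± 0.30), AT3G45680 (1.18 ± 0.23), AT4G24160 (0.94 ± 0.15) and AT3G26470 (0.93 ± 0.16) were also called higher, with adjusted p of 0.0246, 0.0191, 0.00437 and 0.0077. When 1 of the 6 arrays was left out, AT1G76600 and AT3G45680 lost their call in 5 of 6 fits, AT4G24160 in 2 and AT3G26470 in 3. AT1G76600 was kept only without mock replicate 1, as was AT3G45680. AT4G24160 was lost without PEO-IAA replicate 2 or mock replicate 3, and AT3G26470 without PEO-IAA replicate 2, mock replicate 2 or mock replicate 3.

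A further 30 called probe sets name 1 gene, 20 higher with log2 fold changes of 0.41 to 1.94 and 10 lower with -2.63 to -0.58. Their brighter group lay below the median signal of tested probe sets, their groups overlapped, or they lay outside the 15 largest increases. Chosen after their values were seen, AT5G04960 had 25.2, 38.4 and 26.0 with PEO-IAA and 234, 231.5 and 198 in mock (log2 fold change -2.63 ± 0.28, adjusted p = 0.000107). AT3G25930 had 63.3, 88.4 and 54.3 with PEO-IAA and 287, 451 and 390.2 in mock (-2.33 ± 0.28, adjusted p = 0.000326). AT4G37290 had 82.6, 233 and 170.1 with PEO-IAA and 31.9, 23.4 and 48.9 in mock (1.94 ± 0.31, adjusted p = 0.00395). MGL, a methionine gamma-lyase, rose by 0.89 ± 0.18 (adjusted p = 0.0254), and scpl28, a serine carboxypeptidase-like gene, by 1.16 ± 0.26 (adjusted p = 0.0467).

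Some of the strongest changes belong to probe sets without a gene name here. Probe set 246991_at had 83.0, 120.9 and 4.48 with PEO-IAA and 455, 592 and 306.5 in mock (log2 fold change -3.09 ± 0.47, adjusted p = 0.00227). Probe set 250778_at had 136, 94.9 and 30.7 with PEO-IAA and 592, 551 and 293 in mock (-2.50 ± 0.28, adjusted p = 0.000193). In both, PEO-IAA replicate 3 was the lowest array, as in the root hair genes. Probe set 263231_at had 1492, 2078 and 2779 with PEO-IAA and 726, 158.5 and 149 in mock (2.95 ± 0.58, adjusted p = 0.0188), with mock replicate 1 high as in GSTU25. Probe set 260932_s_at had 189.6, 465 and 677 with PEO-IAA and 72.6, 63.4 and 70.9 in mock (2.39 ± 0.36, adjusted p = 0.0022).

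**Figure D4:**
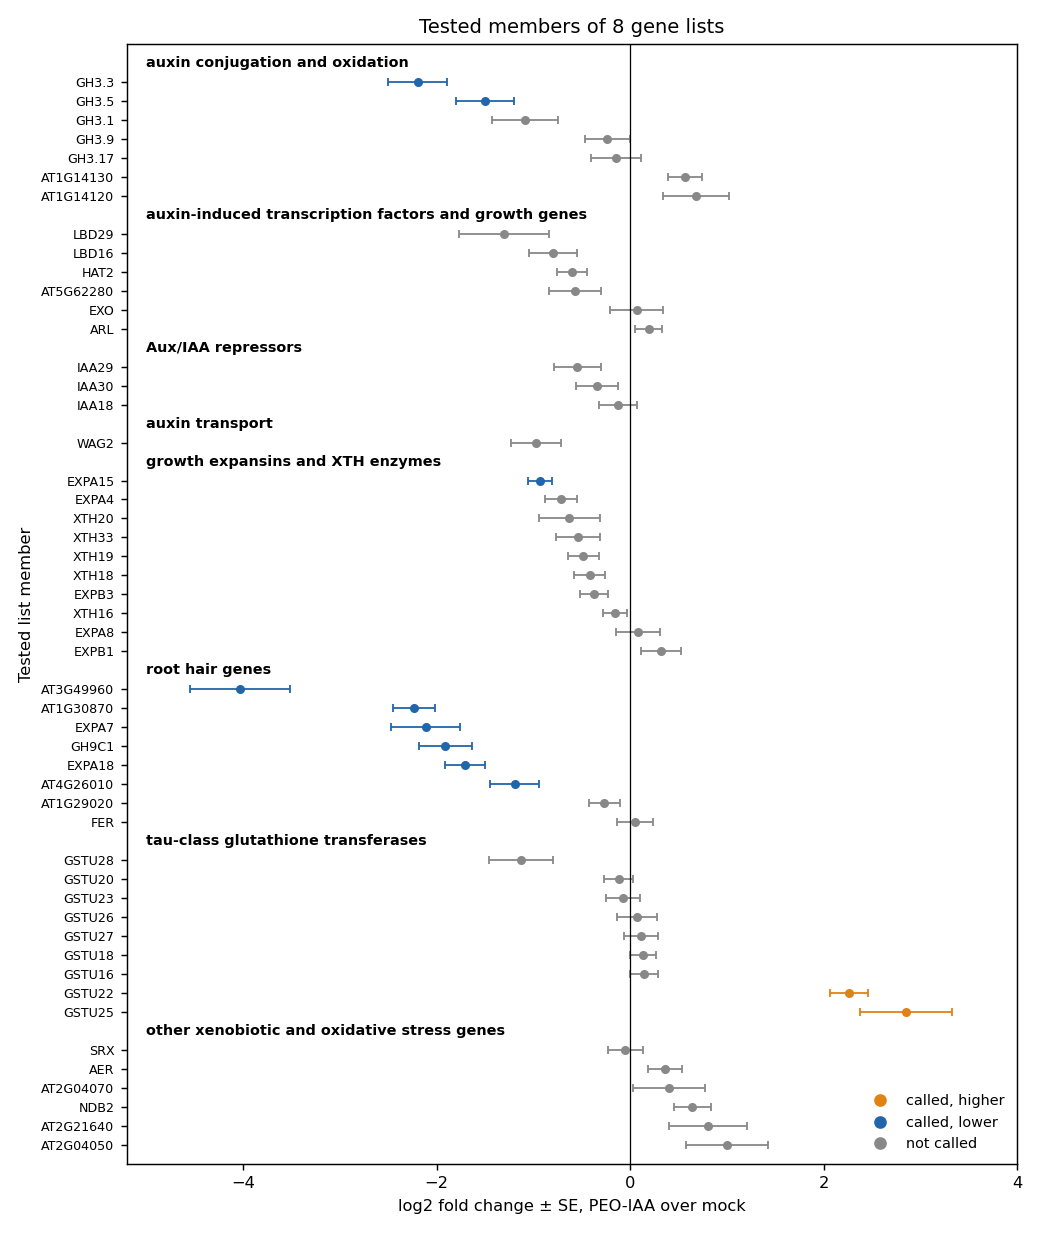
Log2 fold change of PEO-IAA over mock (points) with its standard error (bars) for the tested members of 8 gene lists that are reported here, grouped by list. Blue and orange points were called lower and higher, grey points were not called. 6 root hair genes lie in blue at the left, while 7 of 9 tau-class glutathione transferases are grey and GSTU22 and GSTU25 stand at the right.

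Several groups of genes served as a check of the tissue. RCA, the chloroplast protein Rubisco activase, averaged 16400 ± 313 with PEO-IAA and 14620 ± 667 in mock, and PYK10, an abundant root and hypocotyl beta-glucosidase, averaged 16030 ± 1602 with PEO-IAA and 15970 ± 1016 in mock (SD, n = 3 each). Both markers were bright, as the label of whole seedlings would have it, and neither was called. The reference genes AT2G28390 and AT4G34270 had log2 fold changes of -0.13 ± 0.13 and -0.09 ± 0.16. Each of these marker lists had 1 or 2 members named and tested. The tested genes of cytokinin (1), ethylene (1) and abscisic acid (2) response were not called, and no jasmonate, heat shock, cell cycle or epidermis patterning gene of the lists could be tested.

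A comparison with kynurenine asked whether blocking the receptor and blocking auxin synthesis differed at these genes. The doses differ, 10 µM PEO-IAA and 30 µM kynurenine, and the contrast shares the PEO-IAA arrays with the one above, so its values are given side by side only. The genes named were chosen by PEO-IAA over mock, with the same PEO-IAA arrays. For them the contrast with kynurenine is therefore no independent test. PEO-IAA differed from kynurenine at 95 of 15922 probe sets (0.597%), 59 higher (0.371%) and 36 lower (0.226%). Without the third IAA array there were 226, and leaving out 1 of the 6 arrays gave as few as 55 (without PEO-IAA replicate 3), 59 (without kynurenine replicate 3) and 62 (without kynurenine replicate 2).

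Most of the root hair genes were lower with PEO-IAA than with kynurenine. AT1G30870 averaged 104 ± 62.1 with PEO-IAA, 438 ± 50.8 with kynurenine and 486 ± 159 in mock (SD, n = 3 each). PEO-IAA minus kynurenine was -2.13 ± 0.22 on the log2 scale (adjusted p = 7.6e-05). EXPA7, EXPA18, GH9C1 and AT3G49960 differed by -1.94 ± 0.36, -1.55 ± 0.21, -1.84 ± 0.27 and -2.98 ± 0.52 (adjusted p = 0.0134, 0.000948, 0.00245 and 0.00838), and AT4G26010 by -1.09 ± 0.25 (adjusted p = 0.0817, not called). EXPA7 averaged 27.9 ± 20.7 with PEO-IAA, 109 ± 13.9 with kynurenine and 126 ± 27.1 in mock. AT3G49960 averaged 5.42 ± 5.19 with PEO-IAA, 89.6 ± 5.94 with kynurenine and 200.6 ± 60.1 in mock. Kynurenine over mock was -1.06 ± 0.52 for AT3G49960, and ran from -0.18 (EXPA7) to -0.07 (GH9C1) for the others, none called.

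GH3.3 was low with both inhibitors. It averaged 64.8 ± 33.2 with PEO-IAA, 40.2 ± 28.6 with kynurenine and 317 ± 124 in mock, and the log2 fold change of kynurenine over mock was -2.97 ± 0.30 (adjusted p = 0.000743). The difference between PEO-IAA and kynurenine was 0.78 ± 0.30 (adjusted p = 0.705), which does not show that they act alike. WES1 averaged 148 ± 48.7 with PEO-IAA, 228 ± 90.8 with kynurenine and 420.0 ± 27.0 in mock, and the difference between the inhibitors was -0.56 ± 0.30 (adjusted p = 1). The 2 glutathione transferases and UGT73B4 were higher with PEO-IAA than with kynurenine. GSTU22 averaged 1575 ± 445 with PEO-IAA, 319 ± 69.2 with kynurenine and 313 ± 18.25 in mock (PEO-IAA minus kynurenine 2.26 ± 0.20, adjusted p = 3.86e-05). UGT73B4 averaged 811 ± 181 with PEO-IAA, 113.5 ± 37.3 with kynurenine and 128 ± 65.7 in mock (2.78 ± 0.30, adjusted p = 0.000127). GSTU25 differed by 2.72 ± 0.48 (adjusted p = 0.0091) and AT2G32020 by 3.33 ± 0.32 (adjusted p = 7.25e-05).

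**Figure D5:**
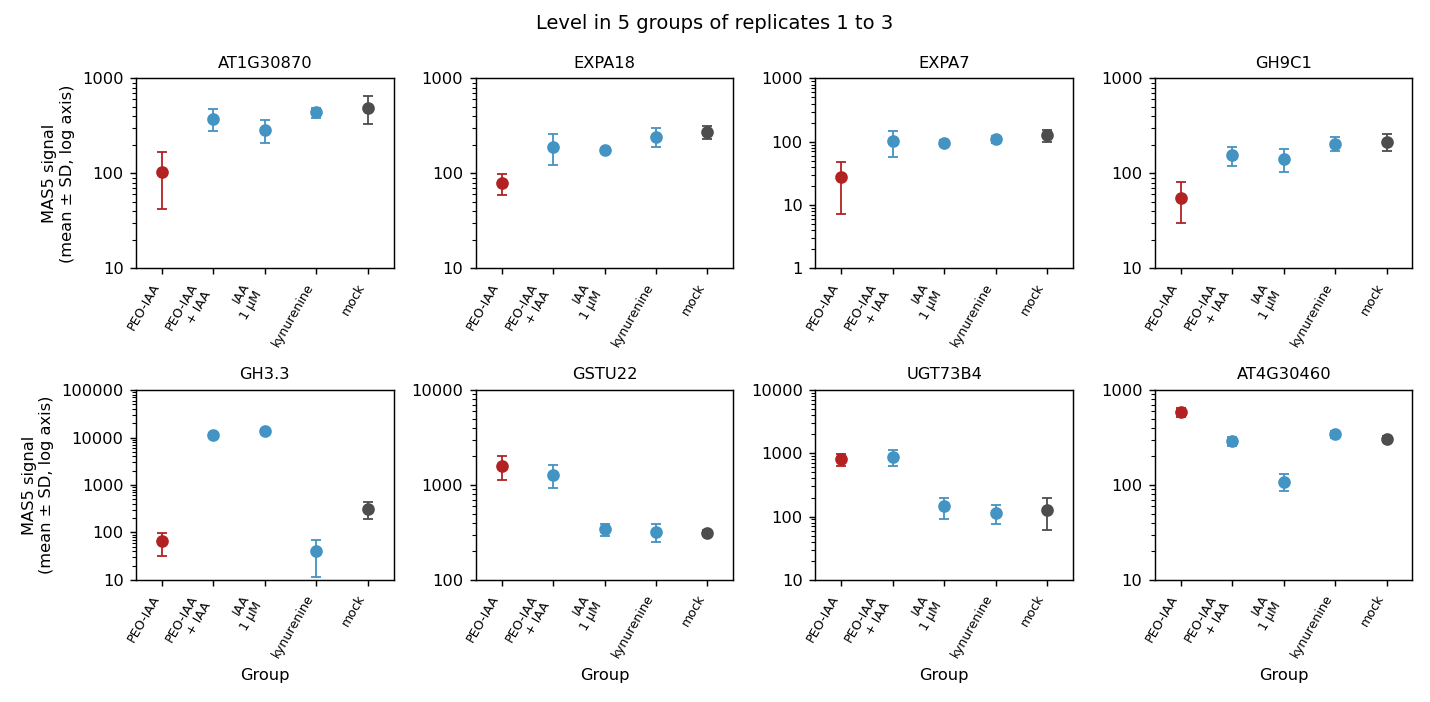
Mean MAS5 signal ± SD (log axis, n = 3 arrays a group) of 8 genes in the groups of replicates 1 to 3, with PEO-IAA in red at the left, mock in dark grey at the right, and PEO-IAA plus IAA, 1 µM IAA and kynurenine in blue between them. The 4 root hair genes in the upper row are lowest with PEO-IAA alone. GH3.3 averages 11310 and 13940 in the groups with IAA, and GSTU22 and UGT73B4 are high in both groups with PEO-IAA.

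The 151 probe sets were also examined in 6 arrays outside the comparison with mock, PEO-IAA plus IAA against IAA alone. Both contrasts come from the same fit and share its estimate of the spread, but no array. In those arrays 122 of the 15922 probe sets (0.766%) were called, 81 (0.509%) higher and 41 (0.258%) lower with PEO-IAA plus IAA. Of the 90 probe sets that rose with PEO-IAA alone, 35 rose there too, which is 38.9% of the 90 and 43.2% of the 81, and none fell. Of the 61 that fell with PEO-IAA alone, 4 fell there too, which is 6.56% of the 61 and 9.76% of the 41, and none rose. The median log2 fold change in those arrays was 0.73 for the 90 and -0.16 for the 61, against 0.0013 for all tested probe sets. Without the third IAA array 398 probe sets were called there (2.5%), 202 higher (1.27%) and 196 lower (1.23%), and then 41 of the 90 rose, 1 of the 90 fell and 6 of the 61 fell.

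GSTU22, GSTU25, UGT73B4, UGT73B5 and AT2G32020 were among those that rose in both. UGT73B4 averaged 881 ± 258 with PEO-IAA plus IAA and 145 ± 52.6 with IAA (log2 fold change 2.57 ± 0.30, adjusted p = 0.000392). GSTU22 had 887, 1355 and 1595 with PEO-IAA plus IAA and 289, 386.5 and 349 with IAA (1.85 ± 0.20, adjusted p = 0.00024). GSTU25 differed by 2.84 ± 0.48, UGT73B5 by 1.19 ± 0.22 and AT2G32020 by 2.29 ± 0.32 (adjusted p = 0.00915, 0.0189 and 0.0024). None of these 5 had a called difference between the effect with IAA and the effect without it.

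The root hair genes did not follow in this contrast. None of the 6 that fell with PEO-IAA alone was called lower with PEO-IAA plus IAA, relative to IAA. Their log2 fold changes there were -0.51 ± 0.52 for AT3G49960, 0.38 ± 0.22 for AT1G30870, -0.0025 ± 0.36 for EXPA7, 0.13 ± 0.27 for GH9C1, 0.07 ± 0.21 for EXPA18 and 0.24 ± 0.25 for AT4G26010. EXPA18 averaged 78.6 ± 19.7 with PEO-IAA, 191 ± 69.4 with PEO-IAA plus IAA, 174 ± 6.92 with IAA and 271 ± 40.8 in mock. Relative to mock, all 6 averaged lower both with IAA and with PEO-IAA plus IAA. IAA over mock was -1.045 for AT3G49960, -0.73 for AT1G30870, -0.35 for EXPA7, -0.605 for GH9C1, -0.606 for EXPA18 and -1.003 for AT4G26010. Of these only AT4G26010 was called (adjusted p = 0.0297). PEO-IAA plus IAA over mock ran from -1.553 for AT3G49960 to -0.34 for AT1G30870, none called. The lack of calls relative to IAA therefore does not show levels as high as in mock. The effect of PEO-IAA with IAA minus that without IAA was called at 22 probe sets (0.138%), AT1G30870 and EXPA18 among them, and it just missed the threshold for GH9C1 (2.04 ± 0.39, adjusted p = 0.05001). These genes were chosen by PEO-IAA over mock, which enters this difference with reversed sign, so the difference is no independent test of them. Without the third IAA array it was called at 228 probe sets, and then also for GH9C1 (2.39 ± 0.33), EXPA7 (2.46 ± 0.47) and AT3G49960 (3.61 ± 0.76), with adjusted p of 0.00159, 0.0191 and 0.0265.

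GH3.3 reached 11310 ± 1388 with PEO-IAA plus IAA and 13940 ± 1272 with IAA, far above 64.8 ± 33.2 with PEO-IAA alone. PEO-IAA plus IAA was not called different from IAA for GH3.3 (log2 fold change -0.30 ± 0.30, adjusted p = 0.599). The difference between its effect with and without IAA was 1.89 ± 0.43 (adjusted p = 0.135, and 0.0535 without the third IAA array). WES1 averaged 1175 ± 280.4 with PEO-IAA plus IAA and 2600.0 ± 819 with IAA (-1.11 ± 0.30, adjusted p = 0.0906).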

How the data were processed

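Whole-seedling RNA was measured on 23 ATH1 arrays. The deposited intensity values are MAS5 probe set signals on a linear scale, per the submitters' processing notes, which name no version; the file header gives no further steps. The 2% trimmed mean of each array was 500.04 to 500.05, so the values were not scaled again. Detection calls were not used here, so dim signals are the least certain.

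The 64 control probe sets were removed from 22810. The analysis scale was log2(signal + 7.54), the constant being the 10th percentile of all values, and the 15922 probe sets with a mean above the 30th percentile were tested. A single limma fit (version 3.58.1, R 4.3.3, trended eBayes, 11 residual degrees of freedom) held all 23 arrays as group means with the replicate number as a block, and the Benjamini-Hochberg adjustment ran over all tested probe sets of a contrast. The deviations of same-numbered PEO-IAA and mock arrays from their group means correlated at 0.553, 0.413 and 0.416 across probe sets, and those of differently numbered arrays at -0.424 to 0.0984. Deviations within a group sum to 0, so positive same-numbered values by themselves push the others below 0. The number was used as a pair because the comparison is defined so.

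On simulated data with the design of PEO-IAA against mock, 15922 probe sets and 100 changes of each size, the fit recovered 65 of the changes of 1 and 98 of those of 2 on the log2 scale, with 8 false calls. The simulated noise was independent between arrays, with no replicate effect and no outlying array. These figures may therefore not carry over to the real arrays. Genes were named by platform annotation, which gives 1 gene for 13513 probe sets, several for 503 and none for 8794, and 13436 matched the RefSeq gene table. Named are the 15 largest increases and decreases (8 qualified) among calls with 1 gene, no overlap between groups and the brighter group above the median signal, and called list members; other names are given as chosen after their values were seen. Members, lists and tests were chosen with earlier results of these data known. No promoter or protein sequence was used here, and 1 tested list member is not reported here.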

Additional observations from a re-analysis of the deposited data

Results flagged for a closer look

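The effect of PEO-IAA with 1 µM IAA present (PEO-IAA plus IAA over IAA) minus its effect without IAA (PEO-IAA over mock) was tested as an interaction in the same fit. It passed an adjusted p of 0.05 in limma for 5 genes named in the report and for 2 listed peroxidases that were not called with PEO-IAA alone. The 5 genes fell with PEO-IAA relative to mock and were not called lower with PEO-IAA plus IAA relative to IAA alone. They were chosen by PEO-IAA over mock, which enters the interaction with reversed sign, so for them it is no independent test. AT1G30870, a root hair peroxidase, differed by 2.618 on the log2 scale (SE 0.31, adjusted p = 0.00128), with 377 ± 100.4 in PEO-IAA plus IAA and 287.5 ± 77.0 in IAA, and 104 ± 62.1 with PEO-IAA and 486 ± 159 in mock (SD, n = 3 each). EXPA18, a root hair expansin, differed by 1.776 (SE 0.29, adjusted p = 0.0193), and AT2G41800 by 1.064 (SE 0.18, adjusted p = 0.0316). AT2G41800 averaged 239 ± 84.2 with PEO-IAA plus IAA, 215 ± 25.8 with IAA, 291 ± 99.6 with PEO-IAA and 561 ± 87.0 in mock. Relative to mock it was called lower with IAA (-1.345 ± 0.13, adjusted p = 1.88e-05) and with PEO-IAA plus IAA (-1.247 ± 0.13, adjusted p = 9.42e-05). AT5G04960 and AT3G25930, chosen after their values were seen, differed by 2.724 (SE 0.39, adjusted p = 0.00567) and 3.275 (SE 0.40, adjusted p = 0.00128). IAA over mock was -0.73 ± 0.22 for AT1G30870, -0.606 ± 0.21 for EXPA18 and -0.96 ± 0.28 for AT5G04960 (none called). For AT3G25930 it was -1.18 ± 0.28 (adjusted p = 0.0213). The peroxidases AT4G30170 and AT4G11290 differed by 1.325 (SE 0.16, adjusted p = 0.00128) and 1.112 (SE 0.18, adjusted p = 0.0178), while PEO-IAA over mock was -0.07 ± 0.11 and -0.19 ± 0.13 (neither called) and PEO-IAA plus IAA over IAA was 1.25 ± 0.11 and 0.93 ± 0.13 (both called). AT4G30170 averaged 1420 ± 82.8 with PEO-IAA plus IAA, 593 ± 67.0 with IAA and 2203 ± 314 in mock. AT4G11290 averaged 771 ± 100.5, 401 ± 44.3 and 1211 ± 120 in the same groups. Both were called lower than mock with IAA (-1.88 ± 0.11 and -1.58 ± 0.13). With PEO-IAA plus IAA they were called lower than mock too (-0.62 ± 0.11 and -0.65 ± 0.13). All 7 contrasts hold the third IAA array, which stands apart. Without it the differences were 2.58 for AT1G30870, 1.87 for EXPA18, 1.21 for AT2G41800, 2.64 for AT5G04960 and 3.08 for AT3G25930, all called, and 1.33 for AT4G30170 and 1.19 for AT4G11290, also called (adjusted p = 0.000851 and 0.00214). In AT1G30870 the 3 PEO-IAA plus IAA arrays lay at 463, 401 and 267 and the 3 IAA arrays at 351.5, 309 and 202, each array above its pair.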

How the results depend on the processing

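No direction turned for the 31 genes given by the naming rule and the lists under the 19 alternatives run, and 7 were called in all 19, with 3 more called in the 18 that tested them; 18 stayed called in all 6 fits that left out 1 array of the comparison. Leaving out 1 array, the third IAA array included, gave 80 to 320 calls against mock (37 to 185 higher, 36 to 135 lower) and 55 to 226 against kynurenine (36 to 151 higher, 16 to 75 lower). Without the replicate block 105 were called against mock (57 higher), and 6 of the 31 were lost. The interaction went from 22 to 228 calls without the third IAA array (128 higher, 100 lower) and to 17 without the block. Arrays of replicates 1 to 3 alone, with the pairing, gave 87 against mock (49 higher, 38 lower) and 57 against kynurenine (38 and 19). PEO-IAA and mock arrays alone gave 340 (213 and 127) with the pairing and 55 (30 and 25) without it, where 14 of the 31 were kept. A filter at the 50th percentile, which tests fewer probe sets, gave 94 against mock (57 and 37) and 62 against kynurenine (17 lower), and tested only 26 of the 31. Array quality weights gave 553 against mock (301 and 252) and 280 against kynurenine (196 and 84). The cause of these shifts was not tested. Counts against mock under pseudocounts of 1.42 and 60.3 (146 and 154), without a filter (145), with quantile normalization (159) and, chosen after seeing the data, without the third IAA array and without the block (161) stayed within 1.5 times of 151. The larger pseudocount shrinks dim genes by construction: AT3G49960 went to -1.97, EXPA7 to -1.10, GH9C1 to -1.27, GH3.3 to -1.57 and AT2G32020 to 2.35, all still called. Root hair members called lower ranged from 2 (PEO-IAA and mock arrays alone, unpaired) to 6, with 3 at the 50th percentile filter. Of the 61 probe sets that fell, 4 fell with PEO-IAA plus IAA, and 2 without the block.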
